A study of Mus musculus with 3 samples.

Results

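Paneth cells were defined in 3 libraries of mouse small-intestinal epithelium as cell barcodes in which *Defa24*, an alpha-defensin gene, made up at least 5% of the UMIs (unique molecular identifiers, each a counted transcript) and *Tff3*, a goblet cell gene, less than 2%. Of the 42055 barcodes in the files, 39235 had 400 or more detected genes and at most 20% of UMIs on mitochondrial (mt-) genes, and 926 of these met the rule. They were 560 of 11391 *WT* barcodes (4.92%, exact 95% binomial interval 4.53 to 5.33%), 161 of 10869 *LApc* barcodes (1.48%, 1.26 to 1.73%) and 205 of 16975 *LApcL* barcodes (1.21%, 1.05 to 1.38%). The share of UMIs on *Defa24* and *Tff3* chose the members, so the defensin levels below are descriptions.

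The epithelial cells were sorted on EpCAM from the small intestine of C57BL/6 mice that by the labels had received 2 doses of 2 mg tamoxifen, which activates the CreERT2 recombinase. The study's methods give 2 doses for both *Apc* lines and a single dose in their section on *WT* mice, without tying the latter to this library, so a difference in dose cannot be told apart from genotype. The *WT* library was made 21 days after tamoxifen. The *LApc* library came from *Lgr5-CreERT2;Apc fl/fl* at 29 days, the driver being the *Lgr5-EGFP-IRES-CreERT2* allele in the study's methods. The *LApcL* library, at 21 days, had these alleles and also *Lef1 fl/fl*. Cre acts in cells that express the stem cell gene *Lgr5* and the deletion passes to their descendants, and a barcode does not show whether its own alleles were recombined. Each genotype was 1 library. No test between genotypes was therefore possible, genotype cannot be told apart from the mouse and the library, or in *LApc* from the day, and every interval below covers counting error only. The reagent kit was version 2 or 3 by the study's methods, and which was used for which library is not given in the sources used here.

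Paneth cells sit at the base of small-intestinal crypts between the Lgr5+ stem cells. They store alpha-defensins, lysozyme and other antimicrobial proteins in granules, and they also supply stem cells with signals such as Wnt3, Egf and the Notch ligand Dll4. Their maturation depends on Wnt signalling through β-catenin, which the protein Apc restrains and the partner transcription factor Lef1 can relay. In the mouse the alpha-defensins are a large family of near-identical genes on chromosome 8, made as inactive precursors that the protease Mmp7 cleaves.

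The members had a median of 37561 UMIs and 2245.5 genes in *WT*, 12650 UMIs and 1614 genes in *LApc*, and 13754 UMIs and 1884 genes in *LApcL*. Over all barcodes the medians were 9965, 5582 and 10333 UMIs, and the libraries held 140181087, 79696291 and 191509615 UMIs. Pairs of libraries shared 214 to 318 barcodes, and 0 barcodes were members in both libraries of a pair. Few members lay close to the limit. Between 5 and 6% *Defa24* there were 9, 3 and 15 members in *WT*, *LApc* and *LApcL*, and between 4 and 5% lay 9, 11 and 11 barcodes that were left out. *Defa24* reached 10% of UMIs in 94.5, 91.3 and 76.1% of members, respectively.

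The members were chosen by *Defa24*, and the label was checked against the other Paneth markers. *Defa22*, *Ang4*, *Mptx2*, *Lyz1* and *Mmp7* were each at a higher level in members than in the other barcodes in each of the 3 libraries. Of 9 goblet cell genes, 1, 2 and 5 were at least 2-fold higher in members than in the other barcodes of *WT*, *LApc* and *LApcL*. By the same limit, 0 of 10 enterocyte, 0 of 10 enteroendocrine, 0 of 8 tuft cell and 0 of 10 stem or transit-amplifying genes were higher. Immune genes summed to 42.0, 36.9 and 13.0 CPM (UMIs scaled to a fixed total, here with the genes named Defa left out of the total), most of it *Lyz2*, with *Cd79a*, *Ms4a1* and *Jchain* at 0 in each library. Stromal genes summed to 3.34, 3.41 and 1.63 CPM with the collagens *Col1a1*, *Col1a2* and *Col3a1* at 0, and erythroid genes to 2.02, 1.37 and 7.73 CPM. Against all other barcodes of the same library, 38 genes were at least 2-fold higher in *WT* members and 790 lower, which was 3.82 and 79.3% of the 996 genes compared. In *LApc* members these counts were 43 and 633 (3.47 and 51.0% of 1240), and in *LApcL* members 64 and 771 (4.74 and 57.1% of 1350). The total used here still held 15 alpha-defensins filed under other symbols. They made up 50.7, 42.8 and 37.6% of it in *WT*, *LApc* and *LApcL* members, which lowers the members' level of all other genes. Their part in these counts was not tested.

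The sequences of the genes that make up the class are shown because 28 alpha-defensin genes were measured and many differ in a few bases. The coding sequences below were read from the GRCm38 transcripts of *Defa24* (chr8:21734494-21735471, plus strand), *Gm15284*, named *Defa30* by RefSeq (chr8:21134642-21135598, plus strand), *Defa20* (chr8:21509258-21510237, plus strand) and *Defa22* (chr8:21162277-21163249, plus strand). Capitals mark bases that differ from *Defa24*, or face a gap in it, in a pairwise alignment.
Defa24: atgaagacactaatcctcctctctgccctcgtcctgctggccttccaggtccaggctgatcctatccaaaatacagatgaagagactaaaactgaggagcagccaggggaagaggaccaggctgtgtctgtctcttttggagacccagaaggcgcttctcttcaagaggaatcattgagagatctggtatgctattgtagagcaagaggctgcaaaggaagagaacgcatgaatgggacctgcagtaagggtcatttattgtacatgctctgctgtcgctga
Gm15284: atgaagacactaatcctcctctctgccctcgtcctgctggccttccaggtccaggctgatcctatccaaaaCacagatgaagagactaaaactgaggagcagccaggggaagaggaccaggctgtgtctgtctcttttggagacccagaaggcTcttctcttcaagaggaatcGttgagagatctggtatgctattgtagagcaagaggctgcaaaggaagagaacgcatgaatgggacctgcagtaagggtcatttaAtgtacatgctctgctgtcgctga
Defa20: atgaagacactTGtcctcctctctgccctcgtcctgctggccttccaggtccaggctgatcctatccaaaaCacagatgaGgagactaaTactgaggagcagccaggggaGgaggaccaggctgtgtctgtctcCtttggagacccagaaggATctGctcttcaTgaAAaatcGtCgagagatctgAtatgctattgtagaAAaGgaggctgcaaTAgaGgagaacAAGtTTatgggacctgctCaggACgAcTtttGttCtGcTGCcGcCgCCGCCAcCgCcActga
Defa22: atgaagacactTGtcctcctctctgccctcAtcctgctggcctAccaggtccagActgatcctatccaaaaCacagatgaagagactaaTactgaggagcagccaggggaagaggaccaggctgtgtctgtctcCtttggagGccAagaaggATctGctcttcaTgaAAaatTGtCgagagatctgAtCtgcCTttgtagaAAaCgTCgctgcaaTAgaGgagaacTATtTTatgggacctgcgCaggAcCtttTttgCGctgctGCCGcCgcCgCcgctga
*Gm15284* differed from *Defa24* at 4 of 282 bases. *Defa20* and *Defa22* were 82.4 and 81.5% identical to *Defa24*, and 90.6% identical to each other. *Defa20* and *Gm15308* (*Defa32*) had the same coding sequence, and *Defa21* and *Defa22* differed at 2 of 282 bases. The libraries read the 3′ ends of transcripts, where the last 100 bases of *Defa20* and *Gm15308* were 99% identical, so counts of single genes within such pairs are uncertain and sums over groups are given beside them.

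Linking genes at 89% coding identity or more gave 4 groups, a choice made after the values were seen. The *Defa24* group held 11 genes, *Gm15284* and *Defa17* among them, and the *Defa20* group held 6 genes, namely *Defa20*, *Defa21*, *Defa22*, *Gm15308*, *Gm21002* (*Defa33*) and *Defa2*. A group of 5 genes with *Gm14851* (*Defa38*) and *AY761184* (*Defa39*) was at most 66.7% identical to the rest. The last group, of 6 genes, included *Gm14850* (*Defa37*) and *Defa5*. Only 13 of the 28 genes carry a Defa symbol in the files, and the other 15 took 50.7, 42.8 and 37.6% of the UMIs that remained in *WT*, *LApc* and *LApcL* members when the Defa genes were left out.

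The alpha-defensin family as a whole was 74.6, 65.5 and 61.5% of the UMIs of *WT*, *LApc* and *LApcL* members. The genes named Defa alone ran from 5.65 to 62.6% of a member's UMIs in *WT* with a median of 47.3%, from 5.41 to 59.0% in *LApc* with a median of 34.4%, and from 5.22 to 62.1% in *LApcL* with a median of 29.7%. The 3 ranges overlapped over nearly all of their length. Depth moved with this share. In members with fewer than 10000 UMIs, which were 7.86, 42.2 and 37.1% of the class in the 3 libraries, the median was 24.7, 21.5 and 17.3%, and in members with 40000 UMIs or more it was 54.0, 52.8 (4 members) and 40.8%. The part of depth in the difference between libraries was not tested.

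*Defa24* itself took 24.4% of member UMIs in *WT*, 24.8% in *LApc* and 24.0% in *LApcL*, and *Gm15284* took 11.2, 12.0 and 10.8%. The *Defa20* group was where the libraries differed. *Defa20* took 6.98, 3.59 and 3.67% of member UMIs, *Defa21* 5.88, 3.22 and 3.02%, *Defa22* 5.57, 2.74 and 2.91%, and *Gm15308* 2.81, 1.26 and 1.58%. Each of the 4 was lower in both mutant libraries than in *WT*. By contrast *Gm14851* took 5.23, 5.58 and 4.68% and *AY761184* 4.01, 4.51 and 3.69%. Out of all alpha-defensin UMIs of the members, the *Defa20* group was 29.5% in *WT*, 17.0% in *LApc* and 19.0% in *LApcL*, and the *Defa24* group 50.1, 58.7 and 59.4%.

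**Figure D1:**
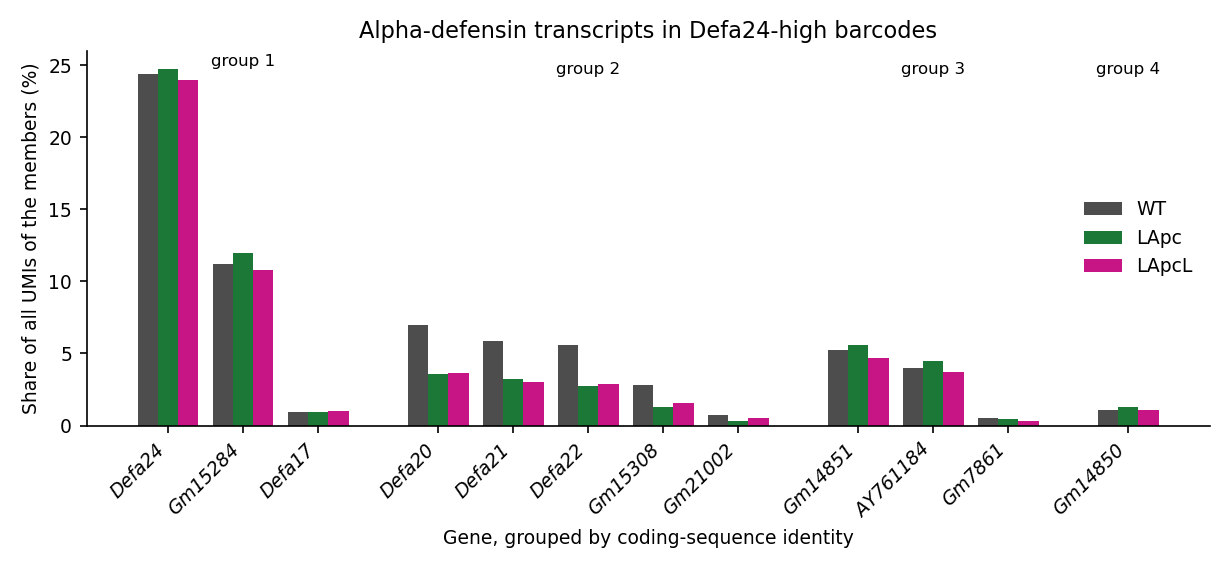
Bars give the share (%) of all UMIs of the members on alpha-defensin genes with 0.5% or more in a library (not all such genes are drawn), in WT, LApc and LApcL, with genes ordered by coding-sequence group. The Defa24 bars are level at 24.4, 24.8 and 24.0%, and the Defa20, Defa21 and Defa22 bars are highest in WT.

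Within classes of depth *WT* had the highest value of the *Defa20* group in 3 of 4 classes, the deepest of which was not computed for the few *LApc* members there. In members with fewer than 10000 UMIs the group was 24.5, 12.5 and 23.1% of alpha-defensin UMIs in *WT*, *LApc* and *LApcL*, and between 10000 and 20000 UMIs it was 20.2% in *WT*, 13.0% in *LApc* and between these values in *LApcL*. Between 20000 and 40000 UMIs it was 14.1, 16.7 and 27.7%, and from 40000 UMIs on it was 35.0% in *WT* and 10.1% in *LApcL*. The deepest members were 46.3% of the class in *WT*, against 2.48% in *LApc* and 13.2% in *LApcL*. Outside the class, in barcodes with under 1% *Defa24*, the *Defa20* group was 27.1, 14.0 and 21.4% of the alpha-defensin UMIs. For this group the libraries stood in the same order as in members. The mixture as a whole was not the same. The group with *Gm14851* was 11.5, 15.3 and 9.93% outside the class, against 18.1, 21.6 and 18.8% in members. The *Defa24* group took a larger share outside the class than in members in each library.

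The upstream sequence of a *Defa20*-group gene and of a *Defa24*-group gene is shown for reference, since these groups varied separately between members. RefSeq (GRCm38.p6) held entries for 15 family genes, with none used here for *Defa24*. Capitals mark CTTTGA and CTTTGT, which are forms of the core bound by Tcf and Lef factors, and TATAAA, the TATA box, each searched on both strands. The stretch of *Defa22* is chr8:21162027-21162276 and that of *Defa30* chr8:21134400-21134649, both on the plus strand, and the last 8 bases of the latter lie within the annotated transcript.
Defa22 upstream: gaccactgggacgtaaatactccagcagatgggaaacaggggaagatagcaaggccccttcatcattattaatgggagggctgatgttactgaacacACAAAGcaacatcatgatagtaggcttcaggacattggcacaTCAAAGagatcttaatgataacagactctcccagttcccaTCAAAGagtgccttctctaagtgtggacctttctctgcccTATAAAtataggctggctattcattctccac
Defa30 upstream: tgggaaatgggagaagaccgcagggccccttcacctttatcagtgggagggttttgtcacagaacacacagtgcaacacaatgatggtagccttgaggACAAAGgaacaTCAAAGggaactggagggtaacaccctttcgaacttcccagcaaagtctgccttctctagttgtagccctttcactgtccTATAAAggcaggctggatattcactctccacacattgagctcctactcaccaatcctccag
In 250 bases CTTTGA was found in 12 of the 15 family promoters (80.0%) and in 13.8% of 32851 promoters of the same length. CTTTGT was found in 8 of 15 (53.3%, against 16.5% of all promoters) and TATAAA in 14 of 15 (93.3%, against 12.4%). These are matches of letters, and binding was not measured.

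Single members differed more than libraries did in which alpha-defensins they carried. The share of a member's alpha-defensin UMIs on the *Defa20* group ran from 0.18 to 50.2% in *WT* with a median of 28.7%, from 0 to 55.8% in *LApc* with a median of 4.54%, and from 0 to 55.3% in *LApcL* with a median of 11.2%. In *WT* and *LApcL* the values fell into a low and a high part with few members in between, whereas *LApc* had most members at low values and a long spread above them. Ranges were set after this was seen, at under 10% and at 20% or more. The low range held 186 *WT* members (33.2%, 29.3 to 37.3%), 97 *LApc* members (60.2%, 52.2 to 67.9%) and 100 *LApcL* members (48.8%, 41.8 to 55.8%). The high range held 333, 41 and 89 members, and the middle 41, 23 and 16. Low-range members were shallower, with median UMIs of 27628.5, 9532 and 13383.5 against 49904, 22869 and 15551 in the high range. Among members with 10000 to 40000 UMIs the low range was 54.9, 50.6 and 47.1% of *WT*, *LApc* and *LApcL* members. The part of depth in the difference between libraries was not tested.

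**Figure D2:**
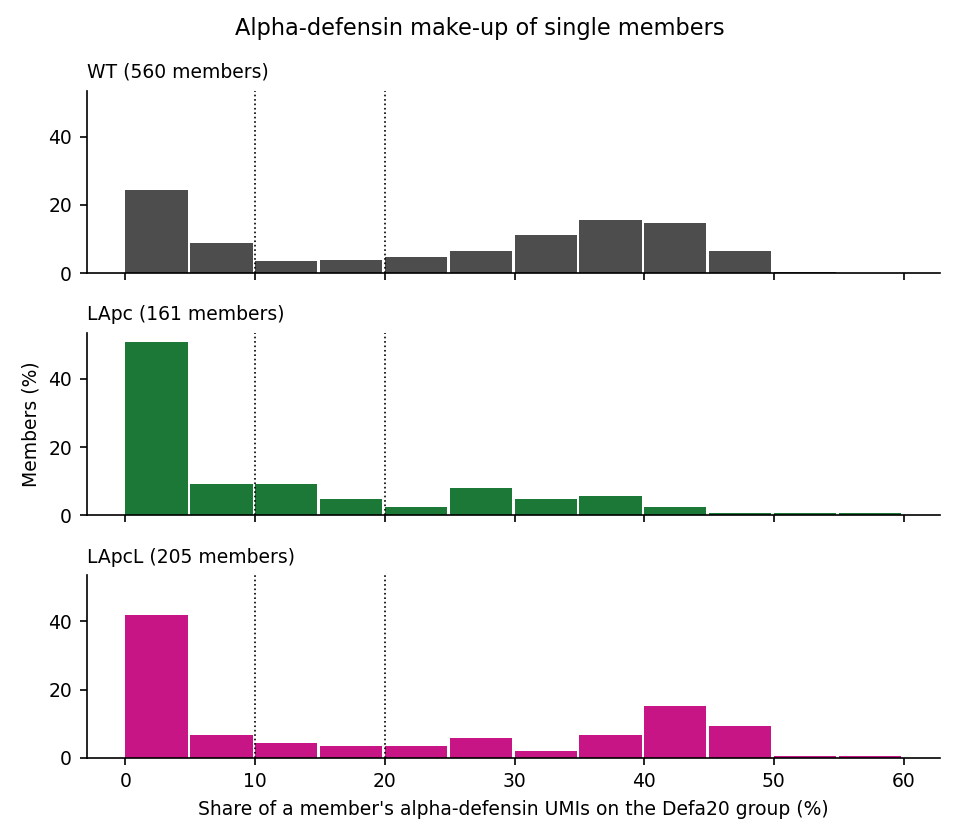
Bars give the percentage of members in 5-point steps of the share (%) of a member's alpha-defensin UMIs that lay on the 6 genes of the Defa20 group, 1 panel per library, and dotted lines mark 10 and 20%. WT and LApcL have a low and a high part, LApc falls off from its lowest step without a clear gap, and the low range under 10% holds 33.2% of WT, 60.2% of LApc and 48.8% of LApcL members.

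The ranges were compared by the other genes, with the whole alpha-defensin family left out of the total. Members of the high range carried more lysozyme and *Nupr1* and less *Rnase1* in every library. Of 1941 genes at 50 CPM or more in either range in all 3 libraries, 3 were at least 2-fold higher in the high range in each library (0.155%), namely *Lyz1*, *Nupr1* and *Zg16*, and 2 were lower (0.103%), namely *Rnase1* and *Brd3*. Within single libraries the counts were 21 higher and 56 lower of 2201 in *WT* (0.954 and 2.54%), 85 and 189 of 2567 in *LApc* (3.31 and 7.36%), and 35 and 27 of 2389 in *LApcL* (1.47 and 1.13%). These genes were named after their values were seen.

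*Lyz1*, which encodes Paneth cell lysozyme, was at 32275 CPM in the low and 78599 CPM in the high range of *WT* (log2 ratio 1.28), 24379 and 73875 CPM in *LApc* (1.60), and 34865 and 76379 CPM in *LApcL* (1.13). *Nupr1*, a stress-responsive chromatin protein, was at 677 and 2455 CPM in *WT* (1.86), 441 and 3085 CPM in *LApc* (2.81), and 440 and 1266 CPM in *LApcL* (1.52). *Rnase1*, a secreted ribonuclease, went the other way, at 1183 and 202 CPM in *WT* (log2 ratio -2.55), 955 and 416 CPM in *LApc*, and 824 and 317 CPM in *LApcL* (-1.38). Depth moved with the ranges. Among members with 10000 to 40000 UMIs the log2 ratios in *WT*, *LApc* and *LApcL* were 0.39, 1.03 and 1.52 for *Lyz1*, 1.03, 2.25 and 1.63 for *Nupr1*, and -2.27, -1.05 and -0.49 for *Rnase1*, each of the same sign as over all members. *Zg16*, a goblet cell lectin, was at 2324 and 8684 CPM in *LApc*, but 1 member held 44.3% of the *Zg16* UMIs of that library and the log2 ratio was -0.18 between 10000 and 40000 UMIs. For *Brd3*, a bromodomain protein, the log2 ratios were -1.01, -1.12 and -1.11, on as few as 8 UMIs in the high range of *LApc*.

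Other antimicrobial genes followed the ranges in some libraries. *Ang4*, a bactericidal ribonuclease, was at 17177 and 48567 CPM in the low and high range of *WT*, 10982 and 30234 CPM for *LApc*, and 18729 and 34510 CPM for *LApcL*, a log2 ratio of 0.88 in the last. *Itln1*, which binds microbial glycans, was at 67551 and 100832 CPM in *WT*, 28929 and 61664 CPM for *LApc*, and 34283 and 44451 CPM for *LApcL*, past 2-fold in *LApc* alone. *Mmp7* stayed within 2-fold in each. *Mptx2*, a pentraxin of Paneth cells, was higher in the high range of *WT* and *LApc* (log2 ratios 0.90 and 1.66) and lower in *LApcL* (-0.93), where the ratio was 0.07 between 10000 and 40000 UMIs. *Reg3g*, a lectin that kills Gram-positive bacteria, had the same pattern, with log2 ratios of 1.88, 2.56 and -0.66.

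**Figure D3:**
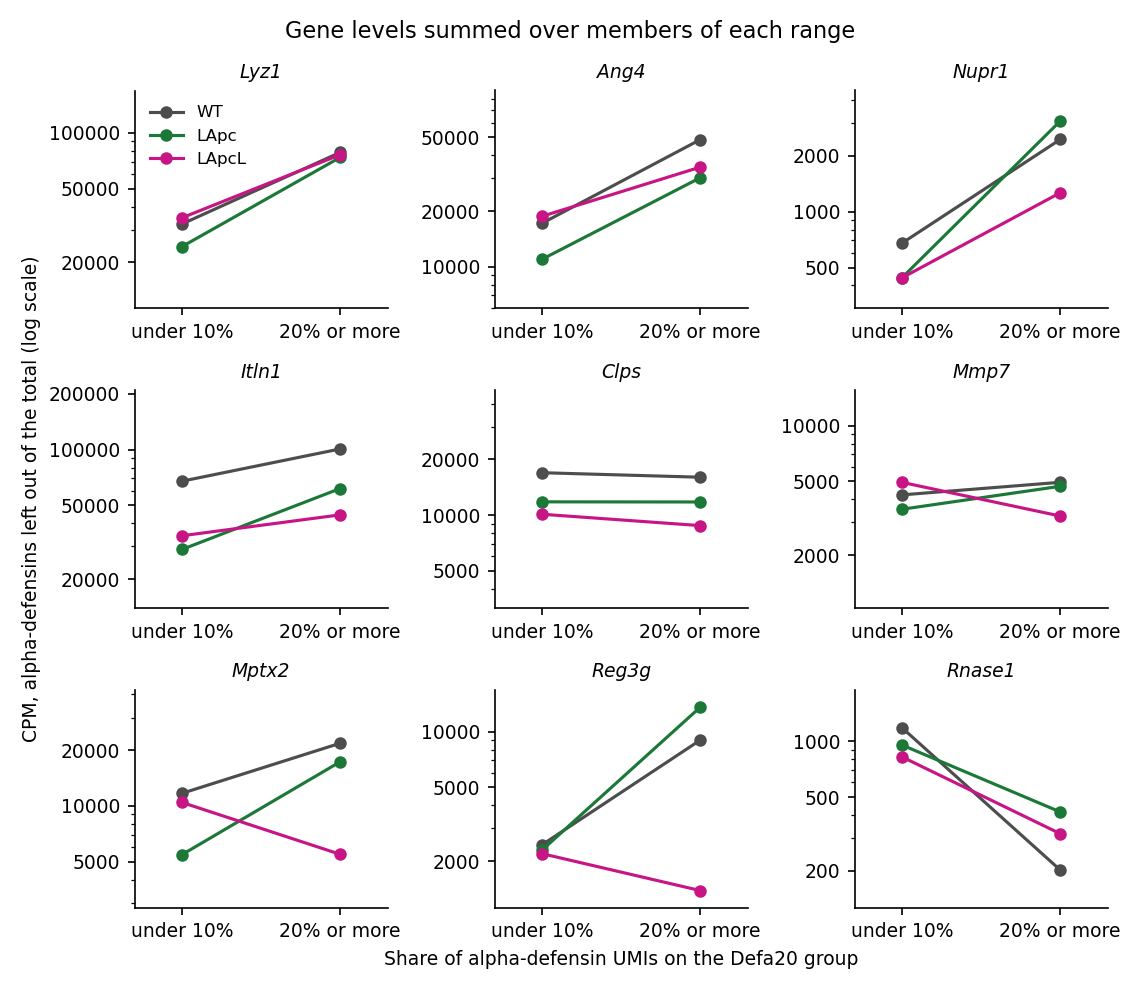
Points give the level of 9 genes (CPM on a log axis, all alpha-defensins left out of the total) summed over members with under 10% and with 20% or more of their alpha-defensin UMIs on the Defa20 group, with 1 line per library. Lyz1, Ang4, Nupr1 and Itln1 are higher in the high range in all 3 libraries, Rnase1 is lower in all 3, and Mptx2 and Reg3g are higher in WT and LApc and lower in LApcL.

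Some goblet cell genes were lower in the high range of *LApcL*, whereas *Zg16* was higher there (641 and 1472 CPM). *Spink4*, which goblet and Paneth cells secrete, was at 81822 CPM in the low and 27538 CPM in the high range of *LApcL* (log2 ratio -1.57), against -0.23 in *WT* and 0.32 in *LApc*. *Agr2*, a mucin-folding protein of the endoplasmic reticulum, had log2 ratios of 0.69, 0.97 and -1.64, and *Muc2*, the main intestinal mucin, of 0.78, 0.72 and -0.81. *Retnlb*, an antibacterial resistin-like protein of goblet cells, had 200 UMIs in the low range of *LApcL* and 0 in the high range, so it was at least 38.5-fold higher in the low range, with the floor set at 3 UMIs over the range. It had 80 and 6 UMIs in *LApc* (log2 ratio -2.61, 95% interval -4.10 to -1.43) and 19 and 62 in *WT* (0.73, -0.03 to 1.55). The members with a *Retnlb* UMI were few, 36 in *WT*, 13 in *LApc* and 27 in *LApcL*, and the top member held 21.7, 41.9 and 19.3% of the UMIs.

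The class was then compared between libraries, with CPM computed without the genes named Defa. Under this total the median gene of all tested had a log2 ratio of 0.35 for *LApc* over *WT*, 0.53 for *LApcL* over *WT* and 0.20 for *LApcL* over *LApc*, and the counts depended on the total chosen. For *LApc* over *WT*, 54 of 1274 genes were at least 2-fold higher (4.24%) and 11 lower (0.863%, together 5.10%), but with the whole alpha-defensin family left out the split was 51 and 27, and with edgeR's TMM factors 15 and 52. For *LApcL* over *WT* it was 119 of 1377 higher (8.64%) and 20 lower (1.45%, together 10.1%), against 52 and 63 without the family and 17 and 66 with TMM. For *LApcL* over *LApc* it was 30 of 1443 higher (2.08%) and 37 lower (2.56%, together 4.64%), against 33 and 95 without the family. The genes described as higher or lower below, other than those given only as values or counted in gene lists, passed 2-fold under each of 6 totals. This choice was made after the values were seen. The counts over gene lists below used only the total without the genes named Defa. The genes they count did not all pass under each total. The comparisons with *WT* share the *WT* library, and those with *LApcL* the *LApcL* library.

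The Paneth markers outside the Defa genes stayed within 2-fold in each comparison under this total. *Lyz1* was at 30901, 22949 and 32315 CPM in members of *WT*, *LApc* and *LApcL*. In single members it ran from 66.8 to 93049 CPM in *WT* with a median of 24983 CPM, from 0 to 78768 CPM in *LApc* (median 16644 CPM) and from 125 to 119952 CPM in *LApcL* (median 24711 CPM), so the libraries overlapped widely. Depth moved with *Lyz1* too, with medians of 9197, 8701 and 16033 CPM in members under 10000 UMIs and of 17693, 28193 and 30881 CPM between 20000 and 40000 UMIs, where *WT* was the lowest of the 3. *Ang4* was at 18518, 10652 and 15522 CPM, and *Mptx2* at 8942, 5686 and 5332 CPM. *Mmp7*, the defensin-cleaving protease, was at 2305, 2367 and 2795 CPM. The log2 ratio of *LApc* to *WT* was below 0 under each of 6 totals for *Lyz1* (-0.93 to -0.20) and crossed 0 for *Mmp7* (-0.46 to 0.26), and for *LApcL* over *WT* that of *Lyz1* crossed 0 as well (-0.46 to 0.32). The median log2 ratio of the 4 markers tested was -0.54, -0.10 and 0.37 in the 3 comparisons, and 0 of 4 passed 2-fold in any. Under the total that most lowered the mutant libraries, *Ang4* (-1.30) and *Mptx2* (-1.15) in *LApc* and *Mptx2* in *LApcL* (-1.27) did pass, so their log2 ratios to *WT* are given as values, with 0.00 as the highest for *Ang4* in *LApcL* and -0.49 for *Mptx2*.

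Of 14 antimicrobial genes tested, 1 was at least 2-fold higher and 1 lower in *LApc* than in *WT*, 0 higher and 1 lower in *LApcL* than in *WT*, and 1 higher and 2 lower in *LApcL* than in *LApc*. *Itln1* was at 44296, 23088 and 23921 CPM in *WT*, *LApc* and *LApcL*, with log2 ratios to *WT* from -1.44 to -0.71 and from -1.42 to -0.63 over the 6 totals. *Reg3g* was at 3212 and 3520 CPM in *WT* and *LApc* and at 1173 CPM in *LApcL*, a log2 ratio of -1.45 to *WT* and -1.58 to *LApc*. *Reg3b*, a related lectin active on Gram-negative bacteria, was at 1014, 2416 and 881 CPM. The other barcodes moved in the same direction for *Reg3g*, with log2 ratios of -1.43 and -2.04, as did *Tff3*-high barcodes (-0.40 and -0.73), whereas enterocyte-gene barcodes were higher (0.91 and 0.44). *Reg4*, a secreted lectin, was at 1725, 1200 and 2712 CPM and was higher in *LApcL* than in *LApc* (log2 ratio 1.18) while the other barcodes went down (-2.23). *Klk1*, a tissue kallikrein, had the same pattern, at 135, 103 and 275 CPM in members (1.42) against -1.52 in the other barcodes. The fall in all other barcodes together was not seen alike in each set. In *Tff3*-high barcodes the log2 ratios were -0.41 for *Reg4* and -0.03 for *Klk1*, and in enterocyte-gene barcodes -2.34 and -0.03. The lipase cofactor *Clps* was at 8111, 7068 and 6100 CPM, and the lipase *Pnliprp2* at 835, 417 and 531 CPM.

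The endoplasmic reticulum and secretory pathway list had 0 of 20 tested genes past 2-fold in each comparison, with medians of -0.24, 0.09 and 0.34. Of the fate factors, *Sox9*, which Paneth cells need, was at 63.1, 117 and 80.9 CPM in *WT*, *LApc* and *LApcL*, and *Atoh1*, which commits cells to the secretory lineage, at 41.0, 42.3 and 36.6 CPM. *Spdef*, which matures goblet and Paneth cells, was at 23.2, 34.1 and 39.4 CPM, and *Gfi1*, a secretory repressor, at 3.17, 2.05 and 5.69 CPM. Of 6 fate factors tested, 0 passed 2-fold in *LApc* over *WT* and 1 in *LApcL* over *WT*.

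Niche factors were measured at low levels. *Wnt3* was at 46.2, 28.0 and 48.4 CPM in members of *WT*, *LApc* and *LApcL*, and at 4.22, 2.64 and 4.09 CPM in the other barcodes. After thinning each barcode to 1000 UMIs outside the Defa genes, 6.25% of *WT* members held a *Wnt3* UMI (4.39 to 8.58%), 3.73% of *LApc* (1.38 to 7.93%) and 4.88% of *LApcL* members (2.36 to 8.79%), against 0 of 910 *WT* barcodes with high enterocyte genes (which allows up to 0.330%), 0.0472% of 2120 in *LApc* and 0 of 674 in *LApcL* (up to 0.445%). Unthinned, the shares of members were 54.8, 20.5 and 42.0%, at median depths outside the Defa genes of 20680.5, 8389 and 9629 UMIs, and those of the enterocyte-gene barcodes 0.330, 0.283 and 0.593% at 8794, 5251 and 6875 UMIs. *Egf* was at 5.28, 5.46 and 2.85 CPM, *Dll4* at 4.13, 6.15 and 7.73 CPM, and the stem cell factor receptor *Kit* at 15.9, 15.7 and 23.6 CPM. Among the niche genes 1, 2 and 2 were tested in the 3 comparisons, and 1 passed 2-fold, in *LApcL* over *WT*.

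*Bambi*, a membrane protein that dampens TGF-β signalling and a Wnt target, was lower in both mutant libraries. It was at 144, 60.1 and 67.5 CPM in the 3 libraries (log2 ratios to *WT* of -1.26, 95% interval -1.59 to -0.95, and -1.10, -1.33 to -0.86). For *LApcL* it passed 2-fold under some totals only, with a range of -1.62 to -0.84. A *Bambi* UMI was found in 72.9, 31.7 and 35.1% of members, shares that depth also sets. The other barcodes were at 5.36, 7.80 and 6.03 CPM, higher in the mutant libraries. Within the low and the high range alike *Bambi* was lower, with log2 ratios of -1.34 and -1.14 for *LApc* over *WT* and -1.32 and -1.29 for *LApcL* over *WT*. *Ceacam10*, a cell adhesion gene, was at 94.5, 10.2 and 14.6 CPM, and 268, 13 and 18 members held a UMI. In the other barcodes *Ceacam10* was lower as well.

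In *LApc* over *WT*, 15 genes were higher (1.18%) and 8 lower (0.628%) under each of 6 totals. Among those higher were the metallothioneins *Mt1* (179 and 541 CPM) and *Mt2* (19.3 and 154 CPM), the interferon-induced *Ifitm1* (17 and 99 UMIs, 67.6 CPM in *LApc*) and *Ifitm3* (102 and 304 CPM), and *Lgmn*, a lysosomal protease (32.8 and 107 CPM). *Clu*, the secreted chaperone clusterin, was at 0.879 CPM in *WT* and 79.9 CPM in *LApc*, with 1.91 and 323 CPM in the other barcodes. The predicted gene *Gm8730* was at 57.5 and 1267 CPM. The calcium-binding *S100g* was at 67.5 and 382 CPM, but 1 *LApc* member held 77.6% of its UMIs and the level without that member was 86.5 CPM. Of the 15 genes, 13 were also at least 2-fold higher in the other barcodes of the library, 11 in enterocyte-gene and 12 in *Tff3*-high barcodes, and 13 were lower in members than in the other *LApc* barcodes. *Lgmn* and *Retnlb* were the 2 that were at least 2-fold above the rest. Members were set against the other barcodes, here and below, under the total that still held the alpha-defensins without a Defa symbol. This lowers the members' level of all other genes. Some genes counted as lower in members had small log2 ratios to the rest, such as *Zfos1* (-0.60) and *Gm8730* (-0.71). The part of this total in these counts was not tested.

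Lower in *LApc* were *Bambi*, *Ceacam10*, *Clca1*, a goblet cell protease (226 and 72.4 CPM), *Fabp6*, the ileal bile acid carrier (811 and 289 CPM), and *Ghrl*, the hormone ghrelin (59.2 and 18.4 CPM). For *Ghrl*, 1 *WT* member held 44.0% of the UMIs, and the *WT* level without it was 33.2 CPM, less than 2-fold above *LApc*. The others were the defensins *Gm15308* and *Gm21002*, and *AY036118* (209 and 83.3 CPM). For 5 of the 8 the other barcodes were also at least 2-fold lower.

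In *LApcL* over *WT*, 23 genes were higher (1.67%) and 14 lower (1.02%) under each of 6 totals. The Wnt feedback inhibitor *Nkd1* was at 11.3 and 53.7 CPM, the Id factors *Id1* and *Id3*, targets of BMP signalling, at 30.3 and 101 CPM and 30.4 and 122 CPM, and the tight junction gene *Cldn2* at 28.3 and 93.1 CPM. *Ifitm1* was at 253 CPM in *LApcL*, *S100a6*, a calcium-binding protein, at 93.7 and 620 CPM, *S100g* at 67.5 and 819 CPM, and *Myl9*, a myosin light chain, at 0.176 CPM (2 UMIs) and 55.3 CPM, a log2 ratio of 8.30 (6.42 to 11.36). *S100g* was found in 97.1% of *LApcL* members. Of the 23 genes, 22 were also at least 2-fold higher in the other barcodes, 18 in enterocyte-gene and 17 in *Tff3*-high barcodes, and 21 were lower in members than in the rest of the library. *Retnlb* (8.09 and 82.1 CPM) and *Wfdc18* (2.46 and 55.7 CPM) were at least 2-fold above the rest. But *Wfdc18* was found in only 24 of 205 *LApcL* members, and 1 of them held 25.5% of its UMIs. Without that member its level was 41.7 CPM, less than 2-fold above the rest. Among the 21 counted as lower in members, *Cldn2* had a log2 ratio to the rest of only -0.35 under this total. *Retnlb* was at 4.19 and 4.46 CPM in all other barcodes together, but in *Tff3*-high barcodes its log2 ratio was 3.23 (2.90 to 3.56), beside 3.34 in members.

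The 14 lower genes included the goblet cell genes *Zg16* (2857 and 586 CPM) and *Clca1* (226 and 33.7 CPM), *Fabp6* (811 and 65.1 CPM), and the hormone gene *Ghrl* (59.2 and 10.2 CPM, or 33.2 CPM in *WT* without 1 member). At a *Defa24* limit of 2% the direction of *Ghrl* turned, with a log2 ratio of *LApcL* over *WT* of 0.98. *Reg3g* and *Ceacam10* were also among them. The other barcodes were at least 2-fold lower for 13 of the 14, and 13 were lower in members than in the rest of the *WT* library. The part of RNA from other cells in these differences was not tested.

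**Figure D4:**
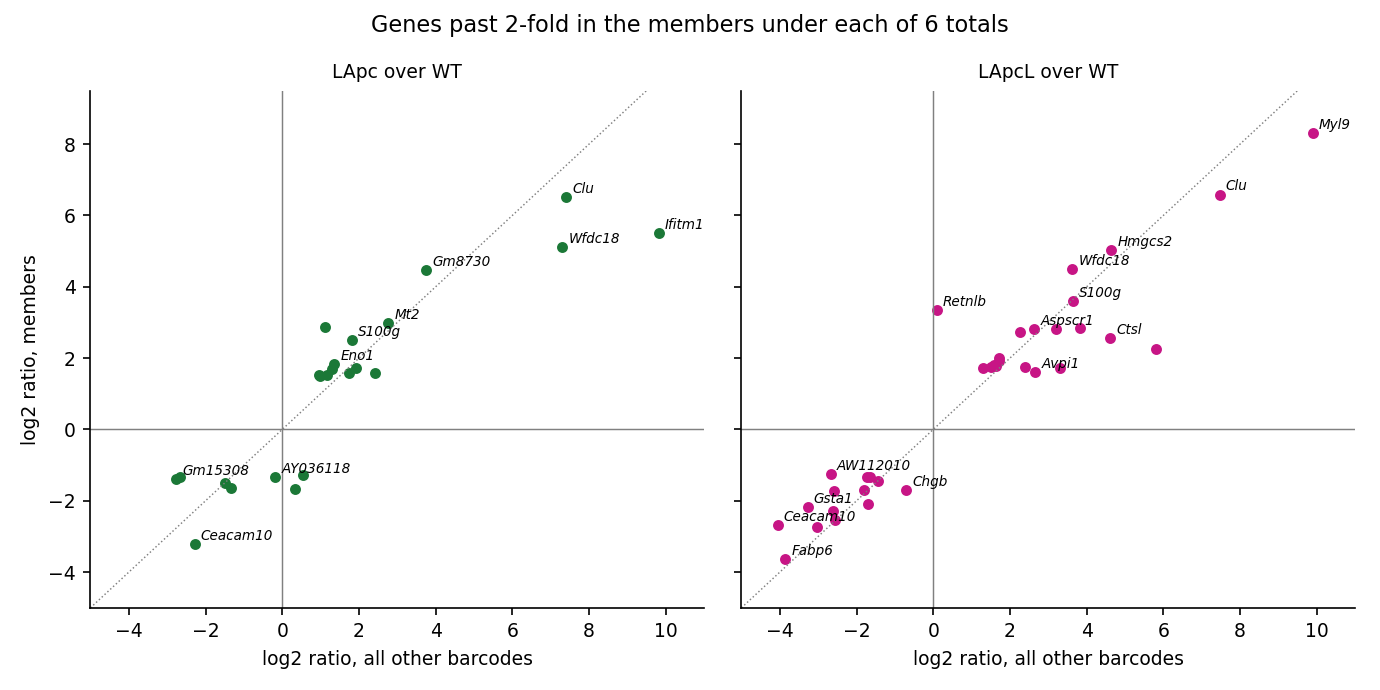
Each point is 1 gene that passed 2-fold in the members under each of 6 totals, with the log2 ratio to WT in all other barcodes on the x axis and in the members on the y axis, for LApc and for LApcL, and with the dotted line at equal values. Most points lie in the quadrants of equal sign, and Retnlb in LApcL lies at 3.34 in members and 0.09 in all other barcodes together, with 3.23 in Tff3-high barcodes alone, which are not drawn apart. Sox17, with 0 UMIs in WT members, is not drawn.

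In *LApcL* over *LApc*, 21 genes were higher (1.46%) and 34 lower (2.36%) under each total. The 34 were all at least 2-fold lower in the other barcodes and all lower in members than in the rest of *LApc*. In enterocyte-gene barcodes 4 were at least 2-fold lower, and in *Tff3*-high barcodes 11. *Fabp1*, *Fabp2*, *Apoa1* and *Rbp2*, which are among the 34, chose the enterocyte-gene barcodes, so their levels there depend on that choice. The same holds for *Fabp1* in the comparison of *LApc* with *WT* above. Of the 21 higher genes, 9 were also at least 2-fold higher in the other barcodes, 11 in enterocyte-gene and 9 in *Tff3*-high barcodes, and 19 were lower in members than in the rest of *LApcL*. The 34 lower genes included the fatty acid carrier *Fabp1* (1028 and 226 CPM in *LApc* and *LApcL*) and *Fabp6* (289 and 65.1 CPM). Of 9 enterocyte genes tested, 9 were at least 2-fold lower in *LApcL* than in *LApc*, with a median log2 ratio of -1.91 beside 0.20 over all genes.

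Of the remaining lists, the Wnt target list had 2, 2 and 3 genes tested and 0, 1 and 1 of them higher. Cell cycle and stress lists had 1 to 2 genes tested and 0 past 2-fold. The adenoma list had 1 of 1, 3 of 3 and 2 of 3 higher, *Sox17*, *Wfdc18* and *Nkd1* being the genes tested. The granule and autophagy list had 2 of 7 higher in *LApc* and 1 of 8 in *LApcL*, and the interferon and MHC list 1 of 8 and 2 of 7 higher. Goblet genes had 0 higher and 1, 2 and 2 of 8 lower, and enteroendocrine genes 1 of 3, 2 of 3 and 0 of 2 lower. Stem or transit-amplifying genes had 2 of 4, 0 of 2 and 0 of 4 higher, and no tuft, immune, stromal or erythroid gene reached the level for comparison.

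The targeted genes were too sparse in this class to check deletion. *Lef1* had 1 UMI in *WT*, 0 in *LApc* and 5 in *LApcL* members. *Apc* had 77, 20 and 24 UMIs, a level of 6.77, 13.7 and 9.76 CPM, and UMIs at the 3′ end can lie outside a deleted exon. The *LApc* over *WT* log2 ratio of *Apc* was 1.01 (0.22 to 1.74).

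*Sox17* and *Msx1*, transcription factor genes that few *WT* barcodes held, were found in *LApcL* members. In *WT*, 0 of 560 members held a UMI of either, which allows a share of up to 0.536%. In *LApc*, 9 of 161 did (5.59%, 2.59 to 10.3%), and in *LApcL* 124 of 205 (60.5%, 53.4 to 67.2%), of which 65 held 1 UMI, 30 held 2 and 29 held 3 or more. Of the other barcodes, 0.194% in *WT*, 10.3% in *LApc* and 76.2% in *LApcL* held a UMI of either. The members' shares were thus below those of the rest in both mutant libraries, and depth also sets such shares. *Sox17* was at 6.83 CPM in *LApc* and 57.7 CPM in *LApcL* members, at least 25.9-fold and 219-fold above the floor of 3 UMIs over the *WT* members. *Msx1* was at 2.73 and 44.7 CPM, at least 10.4-fold and 170-fold above it.

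Other sets of *LApcL* barcodes held both genes as well. Barcodes with high enterocyte genes held 47.6 CPM of *Sox17* and 44.1 CPM of *Msx1*, and *Tff3*-high barcodes 51.7 and 65.8 CPM, while barcodes with 2 or more UMIs of the 2 genes held 319 and 332 CPM. Thinned to 1000 UMIs, 9.27% of members (5.67 to 14.1%) and 4.45% of enterocyte-gene barcodes (3.02 to 6.29%) held *Sox17*, and 5.37% (2.71 to 9.40%) and 2.82% (1.71 to 4.37%) held *Msx1*. Unthinned, the members' shares were 42.9 and 35.1% at a median of 9629 UMIs outside the Defa genes, and those of enterocyte-gene barcodes 19.7 and 17.7% at 6875 UMIs. Both shares were higher in members than in enterocyte-gene barcodes, but the intervals after thinning overlapped. Under the total without the genes named Defa, *Tff3*-high barcodes had more *Msx1* (65.8 CPM) and less *Sox17* (51.7 CPM) than members. That total still held the alpha-defensins without a Defa symbol, which were 37.6% of it in *LApcL* members. This lowers the members' levels and thinned shares against the other sets. The order of the sets with the whole family left out was not tested. How much of the signal was free RNA was not tested.

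**Figure D5:**
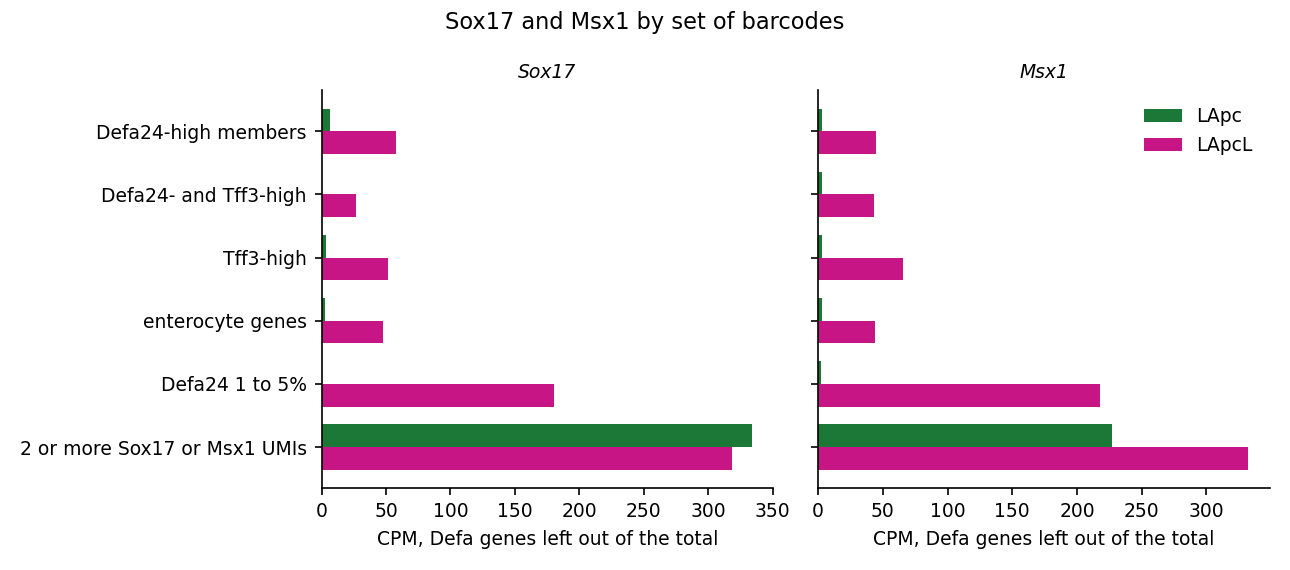
Bars give Sox17 and Msx1 (CPM, Defa genes left out of the total) summed over sets of barcodes of LApc and LApcL, from Defa24-high members to barcodes with 2 or more UMIs of the 2 genes. LApcL members lie at 57.7 and 44.7 CPM and enterocyte-gene barcodes at 47.6 and 44.1 CPM. The total still held the alpha-defensins without a Defa symbol, which lowers the members' bars.

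*LApcL* members with a UMI of *Sox17* or *Msx1* were deeper than those without, with medians of 15324.5 and 11210 UMIs, and 36.5 against 41.2% of their UMIs were on Defa genes. Of 1462 genes, 20 were at least 2-fold higher in them (1.37%) and 1 lower (0.0684%), *Sox17* and *Msx1* among the 20 by construction. *S100g* was at 1022 CPM with and 460 CPM without such a UMI, *Igfbp4*, an IGF-binding protein, at 102 and 37.1 CPM, *Id3* at 151 and 72.0 CPM, and *Ccnd2*, a cyclin, at 202 and 94.5 CPM. *Retnlb* was lower, at 56.0 and 128 CPM. The low and the high *Defa20* range held such members alike, at 60.0 and 61.8%.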

How the data were processed

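The data were 3 single-cell libraries (10x Chromium 3′, 1 per genotype). Per the study's methods and the submitters' processing notes, the authors quantified reads with Cell Ranger 2.1.1 on mm10 (GRCm38), and the deposited values are raw UMI counts per gene and barcode for 27998 genes, with no normalization. Which sample is which was read from the labels.

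Barcodes with 400 or more genes and at most 20% mt- UMIs were kept. Members had *Defa24* at 5% of UMIs or more and *Tff3* under 2%. The members and gene lists were chosen with earlier results of these data known. Counts were summed over members per library and scaled to CPM with the 13 Defa genes left out of the total, or with all 28 alpha-defensins left out in the comparison of ranges. Genes at 50 CPM or more in either library were compared, and a log2 ratio of 1 or more was counted. Each library is 1 sample, so no p-value was computed. Intervals are exact at 95% (Clopper-Pearson for shares, conditional binomial for ratios), and a count of 0 was set to a floor of 3 UMIs. PCR copies were collapsed by UMI before deposit. Shares of members with a UMI were taken after thinning to 1000 UMIs outside the Defa genes, leaving out shallower barcodes, of which members had 0. Barcodes were called enterocyte-gene where *Fabp1*, *Fabp2*, *Apoa1* and *Rbp2* together took 3% of UMIs or more, *Defa24* under 1% and *Tff3* under 2%.

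The named genes were the markers, the leading genes of 19 lists, *Lef1* and *Apc*, Defa genes with 1% of Defa UMIs, the 8 highest and 8 lowest genes of each library comparison by the interval end nearest 0, the 10 most variable over members and the 10 highest against other barcodes. Genes past 2-fold under 6 totals and genes of the ranges were added after their values were seen. A gene of the family that belongs to the sums is not reported by itself here. Doublets were left in the main analysis. Scrublet (scanpy 1.11.5) by its own limit marked 21.7, 2.86 and 0.0345% of *WT*, *LApc* and *LApcL* barcodes and so did not work in *LApcL*. The 9.16, 10.6 and 13.9% with the top scores were removed as an alternative. Analyses ran in python 3.11.15 with numpy 2.4.6, scipy 1.17.1, pandas 2.3.3 and biopython 1.88, with TMM factors from edgeR 4.0.16 in R 4.3.3. The ratio script was tested on simulated data.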

Additional observations from a re-analysis of the deposited data

Results flagged for a closer look

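Outside the filters, 8 *LApc* barcodes met the *Defa24* and *Tff3* limits, a signal in barcodes that no comparison above used. They were 0.341% of the 2345 failing barcodes of that library (exact 95% interval 0.147 to 0.671%). Of these 8, 7 were over the mitochondrial limit and 1 was under the gene limit, and they held 1898 to 3591 UMIs. In *WT*, 0 of 62 failing barcodes met the limits, which allows up to 4.84%, and in *LApcL* 0 of 413, which allows up to 0.726%, so the share in *LApc* lies within what the counts of the other libraries allow. With the filters off these barcodes would add to the 161 *LApc* members.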

How the results depend on the processing

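No paired analysis was possible because each genotype is 1 library, and for the same reason no library could be left out of its group. The share of barcodes that were members moved past its counting interval when the *Defa24* limit was 2% (5.61% in *WT*, 1.91% in *LApc* and 1.89% in *LApcL*) or 10% (0.919% in *LApcL*), when the *Tff3* limit was 1% (4.43% in *WT*, 1.02% in *LApcL*) or 5% (5.64, 1.78 and 1.40%), with a mitochondrial limit of 10% (1.74% in *LApc*), and without members with a *Sox17* or *Msx1* UMI (0.477% in *LApcL*). *WT* had the highest share under each. The summed Defa share of member UMIs was 46.8, 36.6 and 31.4% at a *Defa24* limit of 2%, 48.9, 40.8 and 40.8% at 10%, 48.9, 40.0 and 40.4% at a *Tff3* limit of 1%, 47.2, 37.6 and 36.9% at 5%, 49.3, 40.3 and 38.8% without the top Scrublet scores, 48.4% (*WT*) and 39.8% (*LApc*) at a mitochondrial limit of 10%, 38.2% (*LApcL*) with the 1% extremes of genes removed, and 39.4% (*LApc*) and 41.2% (*LApcL*) without members with a *Sox17* or *Msx1* UMI.

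The count of genes past 2-fold for *LApcL* over *WT*, 139, was 422 and 79 at *Defa24* limits of 2 and 10%, 92 at a *Tff3* limit of 1%, 72 without members with a *Sox17* or *Msx1* UMI, 274 with the total over all genes, 275 with ribosomal and mt- genes also left out, 388 as the mean over members, 365 with a 20 CPM filter, 83 with TMM and 79 relative to the median gene, an alternative added after seeing the data. For *LApc* over *WT*, 65, it was 102 with ribosomal and mt- genes left out and 250 with the 20 CPM filter. For *LApcL* over *LApc*, 67, it was 124 at a *Defa24* limit of 2%, 39 with all genes, 128 without the alpha-defensin family, 114 as the mean over members and 200 with the 20 CPM filter. Why each count moved was not tested.

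Shares of members with a UMI depend on the thinning. *Sox17* was 3.73% in *LApc* unthinned and 17.2% (2000 UMIs) or 42.9% (unthinned) in *LApcL*, *Msx1* 11.3 or 35.1% in *LApcL*, and *Wnt3* 8.93 or 54.8% in *WT*, 20.5% in *LApc* and 42.0% in *LApcL* unthinned. The low *Defa20* range held 24.3% of *WT* and 50.9% of *LApc* members with a limit of 5%, and 54.9 and 50.6% between 10000 and 40000 UMIs, both added after seeing the data. Of the named genes, 2 changed sign at a *Defa24* limit of 2%, *Ghrl* (-2.54 to 0.98) and *Nts* (-2.10 to 0.076) in *LApcL* over *WT*. Of the other values for named genes, 142 moved and 560 did not.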
